A study of Mus musculus with 4 samples.

Results

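The CD3 chains and 5 other receptors and surface proteins of T cells make up 9 of the 32285 genes counted in mouse thymocytes. The 4 chains of the CD3 complex are encoded by Cd3d, Cd3e, Cd3g and Cd247, and the others are Cd2, Cd5, Cd6, Cd28 and Thy1. The genes were listed by name with earlier results known, among them a lower Thy1 level in the libraries labelled knockout. Their levels between labels are therefore given as descriptions, with no test. The question put to the data was whether the Thy1 difference extends to Cd3d, Cd3e and Cd3g, which lie near Thy1 on chromosome 9.

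The 4 groups of thymocytes came from C57BL/6J mice aged 3 weeks, each 1 droplet library from a pool of 4 thymi. They were PD-1 knockout and WT cells of a CD25- gate, labelled CD4 single-positive, and PD-1 knockout and WT cells of a CD25+ gate, labelled regulatory T cells (Tregs) and their progenitors. All cells were depleted of CD8+ cells and sorted as live, CD4+, HSA+ and CD73-, although the stains listed in the protocol name CD74 and not CD73. The labels do not say if a single pool of thymi served both gates of a genotype, or how PD-1 was deleted.

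With 1 library per group no difference has a replicate check. Every interval below is a 95% interval for counting error alone, and each comparison is of libraries. After filtering, 1716 knockout-labelled and 2985 WT CD25- cells were kept, with 9236 knockout-labelled and 7649 WT CD25+ cells. Their totals lay between 11159298 and 68989300 UMIs (unique molecular identifiers, each marking 1 captured transcript) and their medians between 4497 and 6299 UMIs per cell. Of the deposited barcodes, 42.9% of the knockout-labelled and 34.3% of the WT CD25- library had under 500 genes and were left out, against 1.38% and 1.59% in the CD25+ gate. Any 2 libraries shared 4 to 96 barcodes among kept cells. Pdcd1, which encodes PD-1, was not lower under the knockout label: it stood at 27.2 CPM (UMIs per 1e6 UMIs counted) in knockout-labelled and 18.3 CPM in WT CD25- cells, and at 18.9 CPM in knockout-labelled and 16.0 CPM in WT CD25+ cells. The deleted part of the gene is not given, and reads of a 5′ kit can lie outside a deletion, so the libraries are called knockout-labelled throughout.

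Cells were placed in 3 classes by single transcripts. The Foxp3 class held cells with at least 1 UMI of Foxp3, the transcription factor of Tregs. The Cd4/Trac class held cells without Foxp3 that had at least 1 UMI each of Cd4 and of Trac, the constant part of the α chain of the T cell receptor. The Ptcra class held cells without Foxp3 or Cd4 and with at least 1 UMI of Ptcra, the stand-in α chain of thymocytes that have not yet rearranged their own. The Foxp3 class had 59 knockout-labelled and 51 WT CD25- cells, and 389 knockout-labelled and 679 WT CD25+ cells. The Cd4/Trac class had 739 knockout-labelled and 1079 WT CD25- cells, and 244 knockout-labelled and 425 WT CD25+ cells. The Ptcra class had 6586 knockout-labelled and 4791 WT CD25+ cells, which is 71.3% and 62.6% of those libraries, but 0 and 2 cells in the CD25- gate. Much of the CD25+ gate thus went against its CD4+ label at the level of transcripts: Cd4 stood at 21.1 CPM in knockout-labelled and 47.1 CPM in WT CD25+ cells, against 319 and 353 CPM in the knockout-labelled and WT CD25- cells.

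CD3γ, CD3δ and CD3ε pair with each other and, with the ζ chain from Cd247, carry the signal of both the pre-T cell receptor and the mature T cell receptor into the cell. CD2 is an adhesion receptor. CD5 and CD6 are related scavenger-receptor-type proteins that temper receptor signalling, and CD5 on thymocytes is known to follow the strength of that signalling. CD28 is the main costimulatory receptor of T cells. Thy1 is a small protein held in the membrane by a glycosylphosphatidylinositol (GPI) anchor, and it is a common marker of mouse T cells and thymocytes.

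In the mm10 assembly, with gene models of GENCODE vM21, Thy1 (ENSMUSG00000032011) lies on the plus strand of chromosome 9 from 44043384 to 44048579. Cd3g (ENSMUSG00000002033, minus strand, 44969572 to 44980431), Cd3d (ENSMUSG00000032094, plus strand, 44981786 to 44987339) and Cd3e (ENSMUSG00000032093, minus strand, 44998740 to 45009627) follow it on the same chromosome. Their starts are 937.05, 938.4 and 966.24 kb from that of Thy1. Cd3g and Cd3d are read in opposite directions from starts 1355 bases apart. The 250 bases before each of these 2 starts are shown because they are the facing promoter windows of the pair asked about. Both come from RefSeq for GRCm38.p6, and capitals mark the E-box, CANNTG, the motif bound by E proteins.
Cd3g: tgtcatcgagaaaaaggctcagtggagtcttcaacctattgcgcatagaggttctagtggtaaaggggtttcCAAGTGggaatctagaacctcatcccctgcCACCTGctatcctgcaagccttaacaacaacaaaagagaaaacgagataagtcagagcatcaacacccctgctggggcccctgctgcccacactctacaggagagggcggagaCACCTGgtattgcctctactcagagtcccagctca
Cd3d: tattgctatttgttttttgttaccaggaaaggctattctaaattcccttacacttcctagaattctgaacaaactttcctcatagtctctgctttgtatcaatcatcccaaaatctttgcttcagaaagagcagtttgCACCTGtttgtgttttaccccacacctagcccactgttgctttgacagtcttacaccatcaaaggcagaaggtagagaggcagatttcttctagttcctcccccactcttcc

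The Cd3g window is chr9:44980432-44980681 on the minus strand, with 3 E-boxes and 51.6% G and C. The Cd3d window is chr9:44981536-44981785 on the plus strand, with 1 E-box and 41.2% G and C. An E-box on either strand was found in 66.2% of the 32851 windows of that length in the table. GGAA, the core letters of ETS motifs, matched 2 times in the Cd3g window and 6 times in the Cd3d window, counting both strands, and was in 93.4% of all windows. Neither window held TATAAA, which 12.4% of all windows held, or TGTGGT, a RUNX motif that 14.0% held. Of the 9 genes, 5 had an entry in the promoter table: Cd3d, Cd3e, Cd3g, Cd247 and Cd5. These matches are letters in a sequence and say nothing of binding.

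Thy1 was lower under the knockout label in each class as defined above. CD25- Cd4/Trac cells had 128 CPM under the knockout label (763 UMIs, interval 119 to 137) and 469.7 CPM in WT (3205 UMIs, 454 to 486), a ratio of 0.272 (0.251 to 0.295). CD25+ Cd4/Trac cells had 51.4 CPM under the knockout label (104 UMIs, 42.0 to 62.2) and 253 CPM in WT (807 UMIs, 236 to 271), a ratio of 0.203 (0.164 to 0.249). Ptcra cells had 246 CPM under the knockout label (11940 UMIs, 241 to 250.3) and 833 CPM in WT (28932 UMIs, 824 to 843), a ratio of 0.295 (0.289 to 0.301). None of these pairs of intervals overlapped.

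The smallest difference was in Foxp3 cells of the CD25+ gate. Thy1 was at 100.4 CPM in knockout-labelled (217 UMIs, 87.5 to 115) and 212 CPM in WT Foxp3 cells (705 UMIs, 196 to 228), a ratio of 0.475 (0.406 to 0.554). In the few Foxp3 cells of the CD25- gate Thy1 was at 87.6 CPM under the knockout label (30 UMIs, 59.1 to 125) and 279 CPM in WT (63 UMIs, 214 to 357), a ratio of 0.314 (0.196 to 0.492). That value turned round with at least 2 Foxp3 UMIs asked of each cell, at a ratio of 3.35, which rested on 4 Thy1 UMIs in 15 knockout-labelled cells and 1 UMI in 16 WT cells. Over whole libraries the ratio was 0.289 (0.272 to 0.307) in the CD25- gate, from 117 CPM in knockout-labelled and 405 CPM in WT cells. In the CD25+ gate it was 0.311 (0.305 to 0.317), from 215 CPM in knockout-labelled and 692 CPM in WT cells. In cells of no class Thy1 was at 106 CPM in knockout-labelled and 342 CPM in WT CD25- cells (0.309), and at 159.6 CPM in knockout-labelled and 543 CPM in WT CD25+ cells (0.294). The difference was thus present in early Ptcra cells as well as in cells with Cd4 and Trac or with Foxp3.

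**Figure D1:**
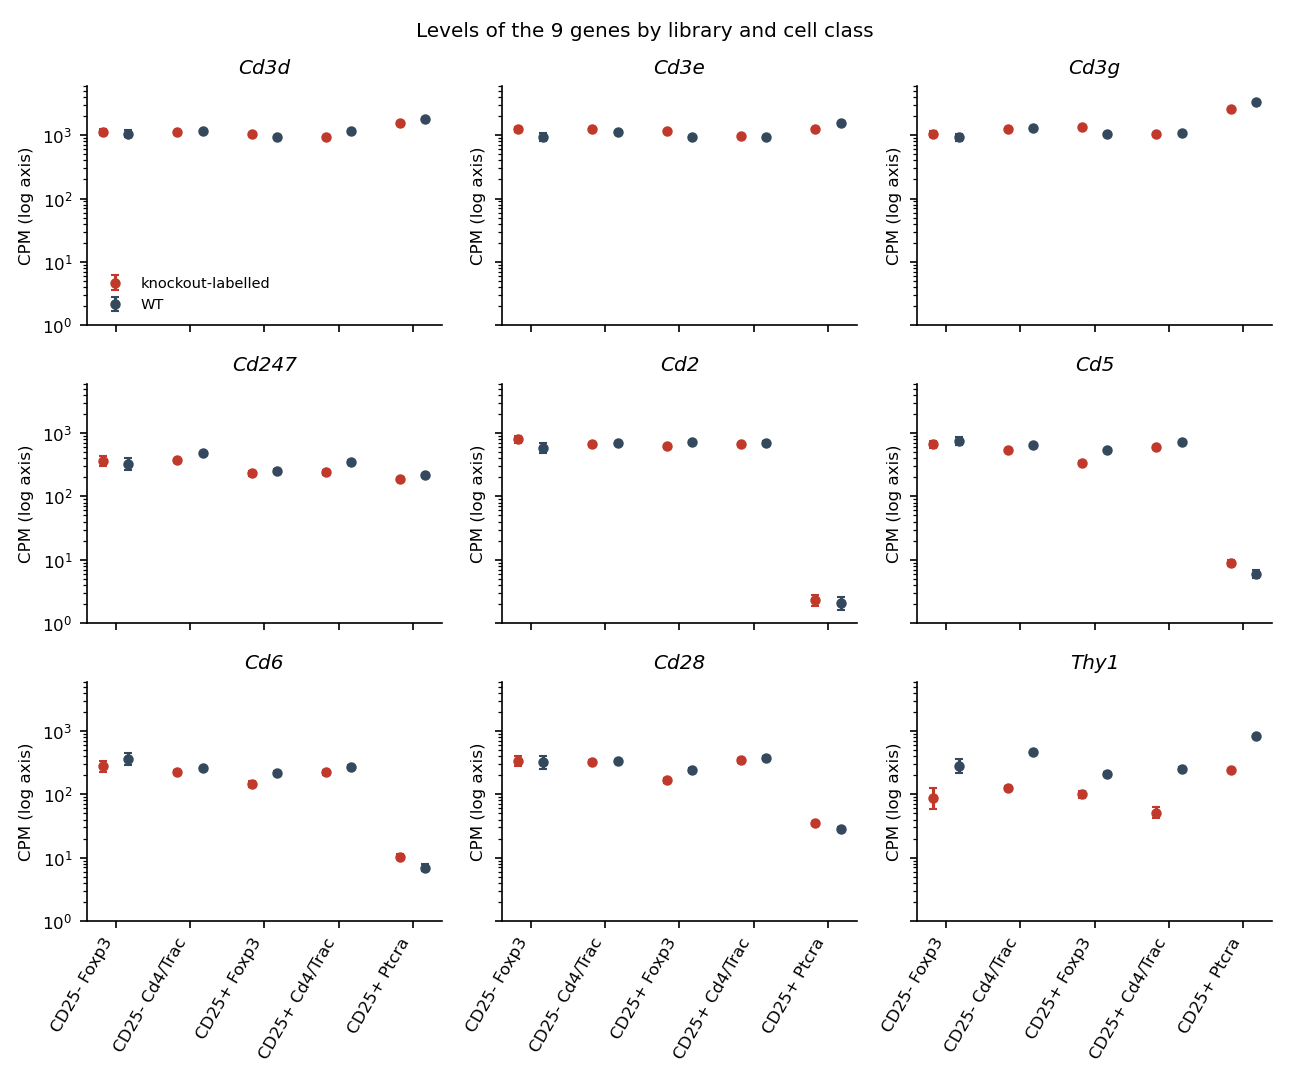
Level of each of the 9 genes in CPM (log axis) in 5 combinations of gate and cell class, with knockout-labelled libraries in red, left of WT libraries in dark blue. Points are 1 library each and bars are 95% Poisson intervals; red lies below blue for Thy1 in all 5 pairs (51.4 to 246 CPM against 212 to 833 CPM), and Cd2, Cd5, Cd6 and Cd28 lie lowest in Ptcra cells of both labels.

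A gene was counted as higher or lower when its CPM differed by at least 1.5-fold and it reached 20 CPM in either library of the comparison. Thy1 was the 1 member lower in CD25- Cd4/Trac cells, where 0.949% of the 6746 genes tested were lower. It was also the 1 member lower in CD25+ Cd4/Trac cells (3.86% of all genes lower), in CD25- Foxp3 cells (20.7%, with few cells behind it), in Ptcra cells (1.74%) and over the whole CD25- libraries (1.25%). Thy1 and Cd5 were the 2 members lower in CD25+ Foxp3 cells, where 3.58% of all genes were lower. Over the whole CD25+ libraries 4 members were lower, Thy1, Cd2, Cd5 and Cd6, where 2.32% of all genes were lower. No member was higher in any of these 7 comparisons. The share of all genes that were higher was 2.51% in CD25- Cd4/Trac, 3.34% in CD25+ Cd4/Trac, 17.1% in CD25- Foxp3, 6.03% in CD25+ Foxp3 and 2.3% in Ptcra cells, and 1.76% and 1.72% over the whole CD25- and CD25+ libraries. All 9 members were tested in each, except in Ptcra cells, where Cd2, Cd5 and Cd6 were under 20 CPM. The list was chosen from these same contrasts, so nothing is read from these counts.

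The median log2 ratio of the members was near that of all genes tested in CD25- Cd4/Trac cells, at -0.07 for the members and -0.01 for all genes. It was lower in CD25+ Cd4/Trac cells, at -0.26 for the members and -0.01 for all genes, and in Ptcra cells, at -0.22 and -0.06. For CD25+ Foxp3 cells it was -0.24 for the members and -0.03 for all genes. It was higher in the few CD25- Foxp3 cells, at 0.10 for the members and -0.03 for all genes. The median of the members was taken over all 9. In Ptcra cells this took in Cd2, Cd5 and Cd6, which were under 20 CPM there and not tested. Thy1 stood far into the lower end of all genes. It was listed with its lower level in these libraries known, so its rank is a description and nothing is read from it. Among genes with at least 100 UMIs over both libraries, 4 of 6746 had a lower ratio in CD25- Cd4/Trac cells, 3 of 6673 in CD25+ Cd4/Trac cells, 8 of 7084 in Ptcra cells and 17 of 6790 in CD25+ Foxp3 cells.

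**Figure D2:**
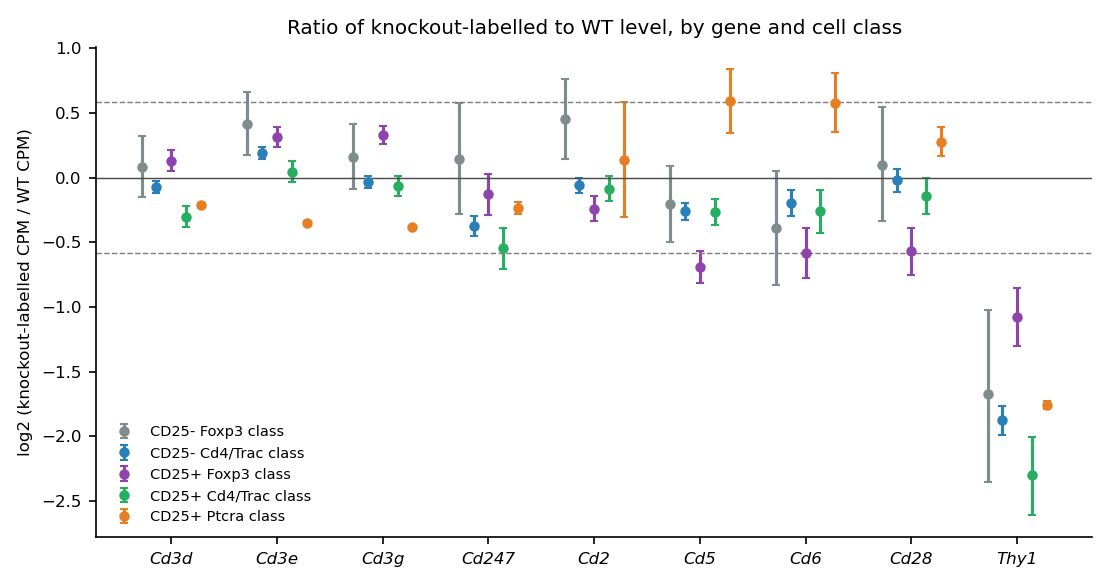
Log2 ratio of the knockout-labelled to the WT level for each gene, 1 colour for each combination of gate and cell class, with 95% intervals for counting error. Dashed lines mark 1.5-fold in either direction; the Thy1 ratios lie between -2.30 and -1.07, and those of Cd3d, Cd3e and Cd3g between -0.38 and 0.42.

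Shares of cells with a Thy1 UMI were lower under the knockout label too when each cell was thinned to 1500 UMIs, so that all cells had 1 depth. Of CD25- Cd4/Trac cells, 15.4% (12.8 to 18.2) of 735 in the knockout-labelled library and 41.0% (38.0 to 44.0) of 1052 in WT had a Thy1 UMI. For CD25+ Cd4/Trac cells the shares were 5.39% (2.90 to 9.05) of 241 under the knockout label and 25.1% (21.0 to 29.5) of 422 in WT. For Ptcra cells they were 31.3% (30.1 to 32.4) of 6515 under the knockout label and 69.9% (68.6 to 71.2) of 4750 in WT. For CD25+ Foxp3 cells they were 9.38% (6.62 to 12.8) of 373 under the knockout label and 17.3% (14.5 to 20.4) of 658 in WT. Without thinning, the shares in CD25- Cd4/Trac cells were 46.8% in knockout-labelled cells (median depth 7390 UMIs) and 64.7% in WT cells (6041 UMIs). Those in Ptcra cells were 74.0% in knockout-labelled cells (5995.5 UMIs) and 96.2% in WT cells (6076 UMIs). No class that should lack Thy1 or the CD3 chains was formed here, so the share that free RNA gives is not known for them.

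The number of Thy1 UMIs in a thinned cell shifted as a whole. At least 3 Thy1 UMIs were found in 0.680% of knockout-labelled and 6.46% of WT CD25- Cd4/Trac cells. In Ptcra cells the shares with at least 3 were 0.890% in the knockout-labelled and 13.3% in the WT library. Cd3e, treated the same way, was detected in 85.4% (82.7 to 87.9) of CD25- Cd4/Trac cells under the knockout label and 79.2% (76.6 to 81.6) in WT. Among Ptcra cells 81.7% (80.7 to 82.6) under the knockout label and 88.4% (87.4 to 89.3) in WT had a Cd3e UMI.

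**Figure D3:**
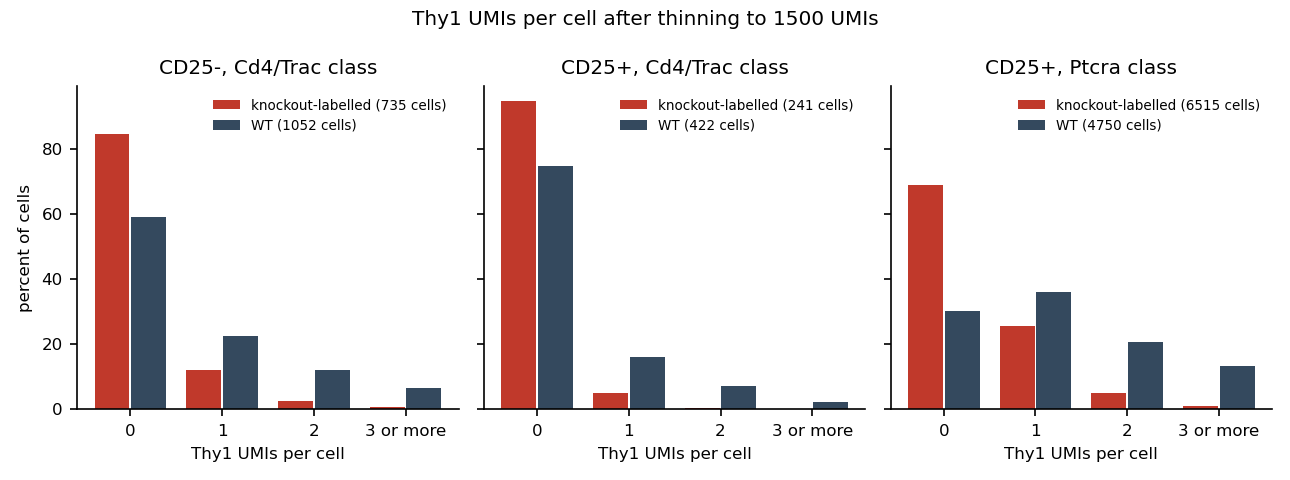
Percent of cells with 0, 1, 2 or at least 3 Thy1 UMIs after each cell was thinned to 1500 UMIs, knockout-labelled bars left of WT bars, for 3 combinations of gate and class (each panel's legend gives the cells counted). Knockout-labelled cells pile up at 0, as with 15.4% against 41.0% of CD25- Cd4/Trac cells having any Thy1 UMI.

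The Thy1 difference was present on both sides of every split of the Cd4/Trac cells by transcripts that mark a state. S1pr1 encodes the receptor that lets mature thymocytes leave the thymus. In CD25- cells with S1pr1, Thy1 was at 168 CPM in 361 knockout-labelled and 585 CPM in 503 WT cells, and in cells without S1pr1 at 91.3 CPM in 378 knockout-labelled and 367 CPM in 576 WT cells. Thy1 was thus higher with S1pr1 than without it under both labels, while the ratio between labels was 0.288 (0.260 to 0.318) with S1pr1 and 0.249 (0.218 to 0.283) without it. Nr4a1 and Egr1 are immediate genes of receptor signalling: Thy1 was at 104 CPM in knockout-labelled and 380 CPM in WT cells with either transcript, and at 142 CPM in knockout-labelled and 516 CPM in WT cells with neither. Both ratios were 0.275 (0.237 to 0.318 with either, 0.2501 to 0.303 with neither).

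The Thy1 ratios of the CD25- gate split by cycling and by early genes lay between 0.204 and 0.279. Mki67 and Top2a are genes of dividing cells. Thy1 was at 147 CPM in knockout-labelled and 558 CPM in WT cells with either of them, a ratio of 0.264 (0.227 to 0.306), and the ratio without them was 0.268 (0.244 to 0.295). Rag1 and Dntt act in receptor rearrangement. With either of them Thy1 was at 105 CPM in 47 knockout-labelled and 517 CPM in 69 WT cells, a ratio of 0.204 (0.149 to 0.274), and the ratio without them was 0.279 (0.257 to 0.303). In the CD25+ gate the 8 ratios lay between 0.141 and 0.444. The extremes there were the split by Rag1 and Dntt: 0.444 (0.308 to 0.630) with either, from 106 CPM in 41 knockout-labelled and 239 CPM in 42 WT cells, and 0.141 (0.106 to 0.185) with neither, from 36.1 CPM in 203 knockout-labelled and 255 CPM in 383 WT cells. With doublets kept, the ratio with either was 0.283. The ratios of Cd3d, Cd3e and Cd3g in the same 16 subsets lay between 0.743 and 1.22.

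**Figure D4:**
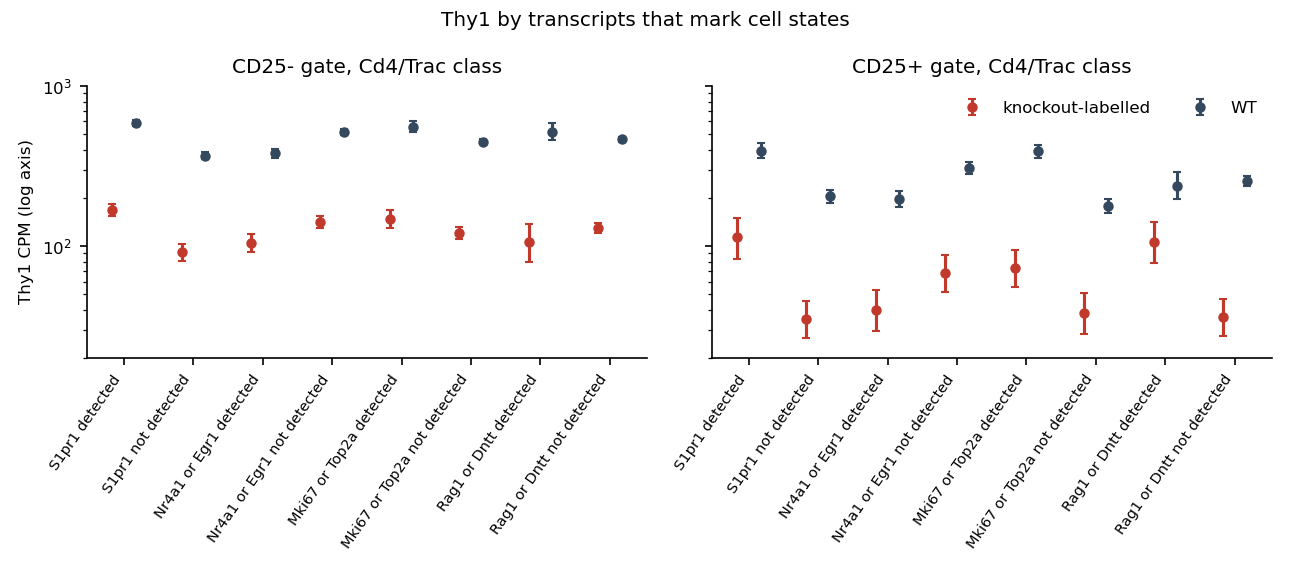
Thy1 level in CPM (log axis) in Cd4/Trac cells of each gate, split by whether transcripts that mark a state were detected; knockout-labelled points (red) stand left of WT points (dark blue), 1 library each, with 95% Poisson intervals. Red is below blue in all 16 pairs, from 35.0 to 168 CPM in knockout-labelled cells against 178 to 585 CPM in WT cells.

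Cd3d, Cd3e and Cd3g were not lower by 1.5-fold in any class. In CD25- Cd4/Trac cells Cd3d, the δ chain, was at 1115 CPM in knockout-labelled and 1174 CPM in WT cells, a ratio of 0.949 (0.919 to 0.981). Cd3e, the ε chain, which sits in both CD3 dimers, was at 1269 CPM in knockout-labelled and 1110.2 CPM in WT cells, a ratio of 1.14 (1.11 to 1.18). Cd3g, the γ chain, was at 1252.5 CPM in knockout-labelled and 1280.1 CPM in WT cells, a ratio of 0.978 (0.949 to 1.01). In CD25+ Cd4/Trac cells the ratios were 0.811 (0.767 to 0.857) for Cd3d, 1.03 (0.976 to 1.09) for Cd3e and 0.957 (0.906 to 1.01) for Cd3g. The intervals of Thy1 and of each CD3 gene thus lay far apart within each class.

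In Ptcra cells all 3 were lower under the knockout label by less than 1.5-fold. Cd3d was at 1533 CPM in knockout-labelled and 1779 CPM in WT cells, a ratio of 0.861 (0.852 to 0.871). Cd3e was at 1233 CPM in knockout-labelled and 1570.2 CPM in WT cells (0.785, 0.776 to 0.795), and Cd3g at 2616 CPM in knockout-labelled and 3408 CPM in WT cells (0.768, 0.762 to 0.774). Thy1 had a ratio of 0.295 in the same cells. The ratios lay above 1 in CD25+ Foxp3 cells, at 1.10 (1.04 to 1.16) for Cd3d, 1.24 (1.18 to 1.31) for Cd3e and 1.26 (1.20 to 1.32) for Cd3g. Among CD25- Foxp3 cells they were 1.06 (0.901 to 1.25) for Cd3d, 1.34 (1.13 to 1.58) for Cd3e and 1.12 (0.942 to 1.33) for Cd3g. In the CD25+ Foxp3 class, Ptcra UMIs were found in 15.9% of knockout-labelled and 5.89% of WT cells. Cd3d, Cd3e and Cd3g were higher in Ptcra than in Cd4/Trac cells of that gate. The part of this mix of cells in the ratios of Cd3d, Cd3e and Cd3g was not tested. Of 210 ratios of these genes under other settings of the processing, 0 passed 1.5-fold, and they lay between 0.739 and 1.40. A gene model on the opposite strand, Gm48719, overlaps Cd3e and was at 3.48 to 6.45 CPM in the 4 libraries.

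Other genes tested near Thy1, most of them on the side of the CD3 genes, did not share its difference in Cd4/Trac cells. On the other side only Sorl1, Sc5d and Tbcel were tested in the CD25- gate, with starts at -1919.1, -1779.1 and -1535.6 kb from that of Thy1. Only Sc5d and Tbcel were tested there in the CD25+ gate, so nearer genes on that side were not examined in these cells. Of 115 genes that start within 2 Mb of Thy1, 26 reached 20 CPM in either label in the CD25- gate, and 0 of the 25 other than Thy1 passed 1.5-fold, against 3.45% of all genes in either direction. Their log2 ratios lay between -0.30 and 0.31, with a median of -0.02. The highest ratios were those of Bcl9l (1.24), Sorl1 (1.21) and Trappc4 (1.20), and the lowest those of Sc5d (0.813), Hyou1 (0.814) and Arcn1 (0.825). The nearest gene that was tested, Cbl, which encodes a ubiquitin ligase of receptor signalling and starts 190.66 kb away, had a ratio of 0.884 (0.799 to 0.978). Genes between it and the CD3 genes included H2afx (1.17), Vps11 (0.953), Rps25 (1.06), Ddx6 (0.987), Kmt2a (0.903), Atp5l (1.10) and Ube4a (1.14), beside Hyou1, Trappc4, Bcl9l and Arcn1. In the CD25+ gate 0 of 23 others passed 1.5-fold in Cd4/Trac cells, against 7.2% of all genes in either direction. On a total without mitochondrial, ribosomal, receptor segment and Gm42418 counts, 2 genes passed in the CD25- gate (Ift46 and Jaml, both higher) and 1 in the CD25+ gate (Ift46, higher), and each of them was under 20 CPM before that change.

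The window was also counted in the other classes. In Ptcra cells 5 of 29 other genes passed 1.5-fold, where 4.04% of all genes did. Sorl1, a sorting receptor, was higher at a ratio of 6.81, and Scn4b (0.278), Il10ra (0.590), Kmt2a (0.592) and Hyou1 (0.611) were lower. That is 1 higher and 4 lower of 29, where 2.3% of all genes were higher and 1.74% lower. The ratio of Scn4b was below that of Thy1 (0.295) in these cells. Among CD25+ Foxp3 cells 5 of 26 passed, against 9.61% of all genes: among them Mpzl2 (2.17), H2afx (1.84) and Sc5d (1.57) were higher and Hyou1 (0.661) was lower. With doublets kept 2 passed there, and 3 with each cell weighted equally. Among CD25- Foxp3 cells 7 of 26 passed, against 37.8% of all genes, and 12 or 13 did under the same change of total or equal weights. Over all of chromosome 9, 7 of 377 genes tested were higher and 5 lower in CD25- Cd4/Trac cells, which is 1.86% and 1.33%, against 2.54% and 0.926% of 6369 genes on other chromosomes. For CD25+ Cd4/Trac cells the shares on chromosome 9 were 4.22% higher and 3.17% lower, against 3.29% and 3.9% on other chromosomes. For Ptcra cells they were 1.78% higher and 2.54% lower, against 2.33% and 1.69%. Hspa8, a heat shock chaperone on chromosome 9 that starts at -3242.4 kb from the start of Thy1, was among the genes with a lower ratio than Thy1 in CD25- Cd4/Trac and Ptcra cells, but not in CD25+ Cd4/Trac cells, and was picked out after its values were seen. It stood at 492 CPM in knockout-labelled and 1819 CPM in WT CD25- Cd4/Trac cells (0.270) and at 483 CPM in knockout-labelled and 2699 CPM in WT Ptcra cells (0.179). In CD25+ Cd4/Trac cells it stood at 561 CPM in knockout-labelled and 2458 CPM in WT. Hspa8 has many processed copies in the genome, and how reads were split among them is not given.

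**Figure D5:**
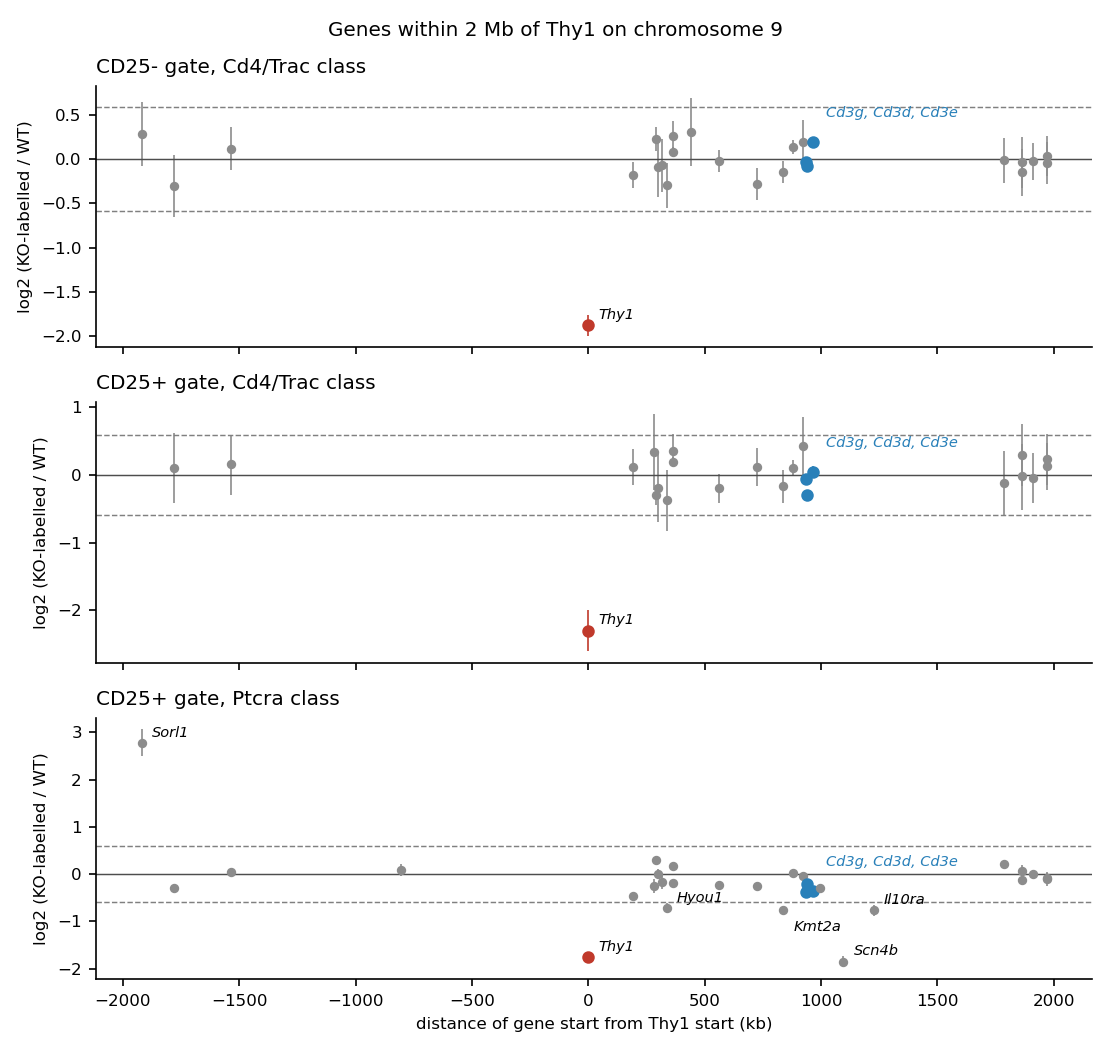
Log2 ratio of the knockout-labelled to the WT level of genes that start within 2 Mb of Thy1 and reach 20 CPM in either label, by the distance of their start from that of Thy1 in kb, with 95% intervals for counting error and dashed lines at 1.5-fold. Thy1 (red) lies at -1.88, -2.30 and -1.76 in the panels from top to bottom, whereas the CD3 genes (blue) stay between -0.38 and 0.19; each panel has its own vertical scale.

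Cd247, the ζ chain gene (ENSMUSG00000005763, chromosome 1, plus strand, 165788681 to 165877277), was lower than in WT in the Cd4/Trac cells of both gates, within 1.5-fold. It was at 369.7 CPM in knockout-labelled and 479.9 CPM in WT CD25- Cd4/Trac cells, a ratio of 0.770 (0.730 to 0.813). In those of the CD25+ gate Cd247 was at 241 CPM in knockout-labelled and 351 CPM in WT cells, a ratio of 0.685 (0.615 to 0.762). With at least 2 UMIs asked of each transcript that sets the class, that ratio was 0.636, past 1.5-fold. The ratio was 0.849 (0.824 to 0.876) in Ptcra cells, and in CD25+ Foxp3 cells it was 0.914 (0.817 to 1.02), an interval that includes no difference. After thinning, 41.0% (37.4 to 44.6) of CD25- Cd4/Trac cells under the knockout label and 47.4% (44.4 to 50.5) in WT had a Cd247 UMI. Gm16565, a gene model on the same strand within Cd247, was at 19.6 to 57.3 CPM in the 4 libraries, and how reads common to both were assigned is not given.

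Cd5 (ENSMUSG00000024669, 10717116 to 10739002) and Cd6 (ENSMUSG00000024670, 10789341 to 10830058) lie on the minus strand of chromosome 19 with starts 91056 bases apart. Both were somewhat lower under the knockout label in Cd4/Trac cells. Cd5 was at 534 CPM in knockout-labelled and 639 CPM in WT CD25- cells (0.836, 0.798 to 0.875), and at 597 CPM in knockout-labelled and 718 CPM in WT CD25+ cells (0.832, 0.775 to 0.892). Cd6 was at 226 CPM in knockout-labelled and 259 CPM in WT CD25- cells (0.873, 0.812 to 0.937), and at 223 CPM in knockout-labelled and 267 CPM in WT CD25+ cells (0.836, 0.744 to 0.938).

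In CD25+ Foxp3 cells Cd5 was lower by more than 1.5-fold, at 336 CPM in knockout-labelled (725 UMIs) and 541 CPM in WT cells (1804 UMIs), a ratio of 0.620 (0.568 to 0.676). After thinning, 40.5% (35.5 to 45.7) of these cells under the knockout label and 55.6% (51.7 to 59.5) in WT had a Cd5 UMI. Cd6 was at 145 CPM in knockout-labelled and 217 CPM in WT Foxp3 cells (0.669, 0.584 to 0.765) and Cd28 at 166 CPM in knockout-labelled and 246 CPM in WT Foxp3 cells (0.675, 0.595 to 0.765). In the same cells Ptcra UMIs were found in 62 of 389 (15.9%) knockout-labelled and 40 of 679 (5.89%) WT cells. The 7 markers of pre-T cell receptor thymocytes summed to 1475 CPM in knockout-labelled and 1076 CPM in WT Foxp3 cells. Most of each sum was Il2ra, the gene for CD25, which is also a Treg marker. It was at 793 CPM in knockout-labelled and 707 CPM in WT Foxp3 cells. With the class narrowed to Foxp3 cells with Cd4 and without Ptcra, 165 knockout-labelled and 347 WT cells remained and the ratio was 0.726 for Cd5, 0.746 for Cd6, 0.714 for Cd28 and 0.379 for Thy1. Cd5 was within 1.5-fold also with classes set after thinning (0.814), with thresholds of 2 UMIs (0.813) and with each cell weighted equally (0.717).

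Cd2 (ENSMUSG00000027863, chromosome 3, minus strand, 101275899 to 101287939) and Cd28 (ENSMUSG00000026012, chromosome 1, plus strand, 60716800 to 60773359) were close between labels in Cd4/Trac cells. Cd2 was at 682 CPM in knockout-labelled and 711 CPM in WT CD25- cells, and at 669 CPM in knockout-labelled and 709.7 CPM in WT CD25+ cells. Its ratios were 0.959 (0.920 to 1.0003) and 0.943 (0.881 to 1.01). Cd28 was at 328 CPM in knockout-labelled and 333 CPM in WT CD25- cells and at 343 CPM in knockout-labelled and 378 CPM in WT CD25+ cells, with ratios of 0.987 (0.929 to 1.05) and 0.907 (0.825 to 0.997). Over the whole CD25+ libraries the ratios were lower: 0.516 for Cd2, from 67.8 CPM in knockout-labelled and 132 CPM in WT cells, 0.515 for Cd5, 0.626 for Cd6 and 0.772 for Cd28. Ptcra cells, in which Cd2, Cd5 and Cd6 were at 10.3 CPM or less, made up 71.3% of the knockout-labelled and 62.6% of the WT CD25+ library, and the part of that share in these ratios was not tested.

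Ptcra cells and Cd4/Trac cells of the CD25+ gate differed in most of the members. The ratio of Ptcra to Cd4/Trac cells was 2.50 in the knockout-labelled and 3.12 in the WT library for Cd3g, while for Cd3d it was 1.64 in the knockout-labelled and 1.54 in the WT library. For Cd3e it was 1.28 in the knockout-labelled and 1.68 in the WT library. Cd247 was lower in Ptcra cells, with ratios of 0.782 in the knockout-labelled and 0.631 in the WT library. Of the members, 3 were higher and 4 lower in the knockout-labelled library (19.1% of all genes higher and 14.9% lower), and 4 higher and 5 lower in WT (20.7% higher and 15.5% lower). Scaling to a total without mitochondrial, ribosomal, receptor segment and Gm42418 counts put the median of all genes at 0.10 in the knockout-labelled and 0.11 in the WT library on the log2 scale.

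Cd2, Cd5, Cd6 and Cd28 were at most 34.8 CPM in Ptcra cells. Cd2 was at 2.29 CPM in knockout-labelled and 2.07 CPM in WT Ptcra cells, Cd5 at 8.90 CPM in knockout-labelled and 5.91 CPM in WT, Cd6 at 10.3 CPM in knockout-labelled and 6.89 CPM in WT, and Cd28 at 34.8 CPM in knockout-labelled and 28.7 CPM in WT. After thinning, Cd2 was detected in 0.292% of knockout-labelled and 0.232% of WT Ptcra cells, and Cd5 in 1.18% of knockout-labelled and 0.484% of WT cells. Cd6 was detected in 1.20% of knockout-labelled and 0.80% of WT Ptcra cells, and Cd28 in 5.30% of knockout-labelled and 3.92% of WT cells. In CD25+ Cd4/Trac cells the thinned share with Cd5 was 55.2% of knockout-labelled and 59.7% of WT cells. The low shares in Ptcra cells were not set against a class without these transcripts, so the part of free RNA in them was not tested.

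Thy1 ran opposite to Cd2, Cd5, Cd6 and Cd28 between these classes: it was higher in Ptcra than in Cd4/Trac cells by 4.79-fold (3.95 to 5.86) in the knockout-labelled and 3.29-fold (3.07 to 3.54) in the WT library. Between gates, Cd4/Trac cells of the CD25+ gate had less Thy1 than those of the CD25- gate, with a ratio of 0.402 (0.324 to 0.494) under the knockout label and 0.539 (0.498 to 0.582) in WT. Cd247 was the other member lower between gates, at 0.651 under the knockout label, while it was 0.732 in WT and within 1.5-fold. In that comparison 2 members were lower under the knockout label, where 11.9% of all genes were lower, and 1 in WT, where 6.33% were. Foxp3 cells had a Thy1 ratio to Cd4/Trac cells of 1.96 (1.54 to 2.49) in the knockout-labelled and 0.836 (0.755 to 0.926) in the WT CD25+ library. The order of these classes in the CD25+ gate was thus not the same under both labels. Ptcra UMIs were found in 15.9% of these knockout-labelled and 5.89% of these WT Foxp3 cells, and their part in the order was not tested. In the CD25- gate Foxp3 cells were below Cd4/Trac cells under both labels. Thy1 there was at 87.6 and 128 CPM in knockout-labelled cells, with overlapping intervals, and at 279 and 469.7 CPM in WT cells.

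The 10 levels of Thy1 ran from 833 CPM in WT Ptcra cells and 469.7 CPM in WT CD25- Cd4/Trac cells down to 51.4 CPM in knockout-labelled CD25+ Cd4/Trac cells. WT CD25- Foxp3 cells (279 CPM), WT CD25+ Cd4/Trac cells (253 CPM) and knockout-labelled Ptcra cells (246 CPM) came next after the first 2, and their neighbouring intervals overlapped. WT CD25+ Foxp3 cells followed at 212 CPM and knockout-labelled CD25- Cd4/Trac cells at 128 CPM, each apart from the profiles next to it in this order. Each still overlapped the wide interval of the CD25- Foxp3 cells of its own label. The last 3 profiles, all knockout-labelled, had intervals that overlapped from 1 to the next. For Cd3e, WT Ptcra cells were highest at 1570.2 CPM and the 9 others lay between 935 and 1269 CPM.

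Likeness of pattern was measured as Pearson's r of log2(CPM + 5) over these 10 profiles among 8383 genes, as a description over profiles that share 4 libraries. The genes most like Thy1 were Lat (0.942), the adaptor of proximal T cell receptor signalling, Stard3 (0.921) and Apba3 (0.921). Cd3d (0.695), Cd3g (0.573) and Cd3e (0.320) were less like it. The genes most like Cd3e were Abr (0.895), Prag1 (0.889) and Ciz1 (0.887), and those most like Cd5 were Itgb2 (0.997), Bach2 (0.997) and Pacsin1 (0.996), beside its neighbour Cd6 (0.998). The values for Cd5 rest mostly on the gap between the 2 Ptcra profiles and the 8 others.

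The list of proximal signalling holds 25 kinases, adaptors and phosphatases that act next to the CD3 chains. In CD25- Cd4/Trac cells 0 of 25 passed 1.5-fold, against 3.45% of all genes, and the median log2 ratio was -0.15 for the list and -0.01 for all genes. The count was 0 of 25 in CD25+ Cd4/Trac cells, against 7.2% of all genes, with medians of -0.14 for the list and -0.01 for all genes. It was 0 of 23 tested in Ptcra cells, against 4.04%, with medians of -0.20 for the list and -0.06 for all genes. With so few genes, these counts are near the shares of all genes. Fyn, a Src-family kinase, was the 1 of 25 lower in CD25+ Foxp3 cells, at 137 CPM in knockout-labelled and 216 CPM in WT cells (0.635), where 3.58% of all genes were lower. Fyn and Cbl were the 2 of 25 lower in CD25- Foxp3 cells, where 20.7% of all genes were. Of the costimulatory and adhesion receptors and ligands, 0 of 16 passed in CD25- Cd4/Trac cells (3.45% of all genes) and 0 of 11 in Ptcra cells (4.04%). Among CD25- Foxp3 cells 7 of 18 were higher and 1 lower, against 17.1% of all genes higher and 20.7% lower, with few cells behind the values. Of 18 in CD25+ Cd4/Trac cells 2 were lower, among them the tetraspanin Cd53 (0.658), against 3.86% of all genes. The integrin chain Itgal (0.658) was the 1 of 18 lower in CD25+ Foxp3 cells, against 3.58% of all genes.

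Other proteins with a GPI anchor, the kind that holds Thy1, had members higher and members lower under the knockout label. In CD25- Cd4/Trac cells 3 of 7 tested were higher and 0 lower, against 2.51% and 0.949% of all genes. Ly6c2 was at 20.9 CPM in knockout-labelled and 3.37 CPM in WT cells (6.21), and Ly6c1 at 86.1 CPM in knockout-labelled and 20.5 CPM in WT cells (4.20). Ly6a, which encodes the stem cell antigen Sca-1, was at 228 CPM in knockout-labelled and 115 CPM in WT cells (1.99). Of 7 in CD25+ Cd4/Trac cells 2 were higher, Cd160 (2.12) and Ly6d (2.06), and 1 was lower, Ly6a (0.626), against 3.34% of all genes higher and 3.86% lower. Of 8 tested in CD25+ Foxp3 cells 5 were higher, among them Bst1 (4.75), Ly6c1 (2.37), Ly6a (1.80) and Ly6d (1.60), against 6.03% of all genes. Ptcra UMIs were found in 15.9% of knockout-labelled and 5.89% of WT cells of that class, and the part of this mix in these ratios was not tested. In Ptcra cells Ly6a was higher (3.25) and Ly6d lower (0.630) of 7 tested, against 2.3% of all genes higher and 1.74% lower. Among CD25- Foxp3 cells 2 of 6 were higher, Ly6a and Art2b, against 17.1% of all genes. Ly6 genes are close copies of each other, and how shared reads were split is not given.

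Of the receptor chains that the CD3 complex carries, 0 of 3 tested passed 1.5-fold in CD25- Cd4/Trac cells, against 3.45% of all genes. With so few genes, that count is near the share of all genes. The list holds Trac, which every Cd4/Trac cell must have, and Ptcra, which every Ptcra cell must have. Their levels in the class they set are thus bound by its rule, and nothing is read from them there. In Ptcra cells 3 of 7 were lower, against 1.74% of all genes, all γ chain constant segments: Tcrg-C2 was at 154 CPM in knockout-labelled and 414 CPM in WT cells (0.373), Tcrg-C1 at 196 CPM in knockout-labelled and 425 CPM in WT cells (0.460), and Tcrg-C4 at 128 CPM in knockout-labelled and 209 CPM in WT cells (0.610). Tcrg-C1 and Tcrg-C2 are near-identical, so their separate values are uncertain. Ptcra (2.73), Trdc (2.68) and Tcrg-C1 (1.64) were the 3 of 8 higher in CD25+ Foxp3 cells, against 6.03% of all genes. The part in these ratios of the unlike shares of Foxp3 cells with Ptcra UMIs was not tested. In CD25+ Cd4/Trac cells Ptcra was the 1 of 4 that was higher, against 3.34% of all genes. It was at 33.1 CPM in knockout-labelled (67 UMIs) and 2.82 CPM in WT cells (9 UMIs), a ratio of 11.7. With cells that hold Ptcra left out of that class, the Thy1 ratio was 0.167.

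Some other measures also differed between labels, not all of them in each class. Gm42418, a gene model that overlaps ribosomal RNA sequence, was at 14867 CPM in knockout-labelled and 25421 CPM in WT CD25- Cd4/Trac cells, and at 7532 CPM in knockout-labelled and 7519 CPM in WT Ptcra cells. The 6 stress genes, Hspa8 among them, summed to 968 CPM in knockout-labelled and 2404 CPM in WT CD25- Cd4/Trac cells, and to 1262 CPM in knockout-labelled and 3294 CPM in WT CD25+ Cd4/Trac cells. In Ptcra cells they summed to 1740 CPM under the knockout label and 4536 CPM in WT. Most of each gap was Hspa8, at 492 CPM in knockout-labelled and 1819 CPM in WT CD25- Cd4/Trac cells. It was at 561 CPM in knockout-labelled and 2458 CPM in WT CD25+ Cd4/Trac cells. In Ptcra cells it was at 483 CPM under the knockout label and 2699 CPM in WT. The part of these transcripts in the Thy1 difference was not tested. Mitochondrial UMIs made up 2.25% in knockout-labelled and 2.09% in WT CD25- Cd4/Trac cells. In those cells 3 of 5 B cell markers summed to 3.69 CPM under the knockout label and 2 of 5 to 2.49 CPM in WT, with Ms4a1 at 0 in both, and 3 of 4 NK cell markers to 5.70 CPM under the knockout label and 2 of 4 to 1.47 CPM in WT, with Ncr1 at 0. Erythroid markers summed to 0.168 CPM under the knockout label and 0 in WT, with Hba-a1 and Hbb-bs at 0, and epithelial and stromal markers to 4.02 CPM under the knockout label and 7.04 CPM in WT, with Pdgfra at 0. The 8 myeloid and dendritic markers summed to 145 CPM under the knockout label and 109.9 CPM in WT, with Lyz2 at 0 in the knockout-labelled and Csf1r and Itgax at 0 in the WT cells. In Ptcra cells B cell markers summed to 82.4 CPM under the knockout label and 88.0 CPM in WT. NK cell markers there summed to 122 CPM under the knockout label and 172 CPM in WT, and epithelial and stromal markers to 227 and 192 CPM. Ms4a1, Ncr1 and Pdgfra were at 0 in Ptcra cells of both labels.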

How the data were processed

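The authors deposited, for each of 4 libraries, a matrix of whole-number UMI counts over 32285 genes. The submitters' processing notes name Cell Ranger 6.2.1 and mm10, but version 6.1.2 stands in the file headers. No source used here says how barcodes were called cells, and the lowest held 500 UMIs. Barcodes with fewer than 500 genes or at least 10% mitochondrial UMIs were left out, and the highest Scrublet scores (scanpy 1.11.5) were removed at 0.8% per 1000 barcodes, which took 2.89% to 8.64% of each library. Counts were summed by library and class and scaled to CPM over all genes. Exact Poisson (levels), conditional binomial (ratios) and Clopper-Pearson (shares) intervals at 95% (scipy 1.17.1) cover counting error only. With 1 library per group no test was possible. Genes at 20 CPM or more in either group entered a comparison and were counted past 1.5-fold. For shares, each cell was thinned to 1500 UMIs and shallower cells were left out. The ratio and the call were run on simulated Poisson counts, the model behind the intervals, with no variation between cells or libraries. This checks the calculation only. All 200 genes changed 4-fold were recovered in CD25- Cd4/Trac, CD25+ Foxp3 and Ptcra cells. In the CD25- Foxp3 cells 188 were, and 27.7% of unchanged genes were called. Positions are from GENCODE vM21, which held 32235 of the 32285 identifiers.

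Named genes are the 9 members, the genes that check labels and classes, up to 4 genes past 1.5-fold with at least 100 UMIs of each list, the window genes given, and the 3 most alike. The members, lists, classes and markers were chosen with earlier results of these data known. The list of GPI-anchored proteins holds Cd48, which is also in the costimulatory list. Values of some genes in these lists are not reported here.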

Additional observations from a re-analysis of the deposited data

How the results depend on the processing

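No paired analysis was possible because each group is 1 library, and no replicate could be left out. Of 70 Thy1 ratios between labels under other settings, 69 were lower and past 1.5-fold; the exception, 3.35 in CD25- Foxp3 cells with thresholds of 2 UMIs, rests on 5 UMIs. The other Thy1 ratios that moved beyond their counting interval were, over the whole CD25- libraries, 0.269 in cells of at least 3000 UMIs and 0.318 with cells weighted equally. In Ptcra cells and over the whole CD25+ libraries, in that order, they were 0.288 and 0.302 with the stricter cell filter, 0.304 and 0.320 with the smaller total, and 0.307 and 0.323 centred on the median gene, and equal weights gave 0.333 over the whole CD25+ libraries. In CD25+ Foxp3 cells they were 0.375 with classes set after thinning, 0.379 with narrower classes, 0.354 with 2 UMIs and 0.405 with equal weights. By state, 32 such ratios lay between 0.146 and 0.451.

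The members past 1.5-fold in CD25+ Foxp3 cells numbered 2, or 1 with a 2-fold limit, classes set after thinning, narrower classes, 2 UMIs or equal weights, and 4 in cells of at least 3000 UMIs. They numbered 1 over the whole CD25+ libraries at 2-fold, 4 (thinned classes), 2 (2 UMIs) and 3 (equal weights) in CD25- Foxp3 cells, 2 in CD25+ Cd4/Trac cells with thinned classes or 2 UMIs, and 2 in Ptcra cells without a CPM minimum.

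All genes past 1.5-fold numbered 207 over the whole CD25- libraries, 233 in CD25- Cd4/Trac, 2727 in CD25- Foxp3, 287 over the whole CD25+ libraries, 494 in CD25+ Cd4/Trac, 665 in CD25+ Foxp3 and 286 in Ptcra cells. In that sequence the counts were 39, 57, 1164, 65, 93, 178 and 71 at 2-fold, 87, 86, 1080, 124, 177, 262 and 126 at 50 CPM, and 3159, 2732, 4134, 3897, 3192, 3621 and 3385 without a minimum. Classes set after thinning gave 1007 in CD25- and 2438 in CD25+ Cd4/Trac cells, thresholds of 2 UMIs 4460 in CD25- Foxp3 and 1371 in CD25+ Cd4/Trac cells, and equal weights 476 over the whole CD25- libraries. There 121 genes were higher and 86 lower, against 156 and 320 with equal weights and 140 and 61 centred; in CD25- Cd4/Trac cells 169 and 64, against 143 and 113 with equal weights; and over the whole CD25+ libraries 122 and 165, against 156 and 133 centred. Chromosome 9 neighbours past the limit numbered 2 in CD25- and 1 in CD25+ Cd4/Trac cells and 12 in CD25- Foxp3 cells with the smaller total, 13 in CD25- Foxp3 and 3 in CD25+ Foxp3 cells with equal weights, and 2 in CD25+ Foxp3 cells with doublets kept. The causes were not tested. The 59 knockout-labelled and 51 WT CD25- Foxp3 cells are too few for ratios near 1.5-fold.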
